A study of Mus musculus with 4 samples.

Results

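Among mouse bone marrow cells sorted as short-term haematopoietic stem cells (ST-HSC), those rich in RNA of Flt3 were compared with those in which no Flt3 RNA was counted. The cells were chosen by their raw Flt3 counts: a cell was called Flt3-rich when it held 3 or more Flt3 UMIs (unique molecular identifiers, each standing for 1 captured RNA molecule) and Flt3-negative when it held 0. Of 4340 ST-HSC cells that passed the filters (1000 or more genes, 2000 or more UMIs, at most 10% mitochondrial UMIs), 792 were Flt3-rich and 1558 were Flt3-negative. The 1268 cells with 1 Flt3 UMI and the 722 with 2 lay between the classes and were left out of the comparison, except that an alternative counts the cells with 2 as Flt3-rich. Across both gates of the series, 5579 cells passed the same filters.

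The bone marrow came from 2 male mice aged 14 weeks, both Tie2-bG-Micm x RosaYFP, with no treatment named in the labels, so no animal without these alleles was measured. The ST-HSC gate held lineage-negative, Kit+, Sca1+ cells without CD150 and without CD48 at the surface, and the long-term (LT-HSC) gate differed from it by the presence of CD150. Flt3 took no part in either gate. Each mouse gave 1 library per gate, and the 2 ST-HSC libraries carry every comparison below, with LT-HSC cells of mouse 2 as a reference level.

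Flt3 encodes a receptor tyrosine kinase that binds Flt3 ligand and signals through PI3 kinase, Ras and Stat5. In mouse marrow it is absent or scarce on the most primitive stem cells and appears on multipotent progenitors, and progenitors with much Flt3 are known for lymphoid and myeloid output and for little megakaryocyte or erythroid output. Dntt, the terminal transferase that adds bases at immunoglobulin and T cell receptor joints, and transcripts from the Ighm locus are among the earliest RNAs of the lymphoid programme.

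The libraries differed in depth and yield. After filtering, mouse 1 kept 2633 of 2793 ST-HSC barcodes with a median of 9881 UMIs per cell, and mouse 2 kept 1707 of 1784 with a median of 7504. The LT-HSC library of mouse 2 kept 1217 cells with a median of 10367 UMIs, whereas that of mouse 1 kept 22 cells of 39553 barcodes and was not used as a reference. The ST-HSC libraries shared 1 cell barcode, the libraries of mouse 2 shared 1, and no other pair of libraries shared any.

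Flt3 counts per cell in the ST-HSC gate declined from 0 upward without a gap. At so few UMIs per cell, such a decline does not show whether the gate held separate populations. The gene lies on chromosome 5 at 147330741-147400489 on the minus strand (mm10). In mouse 1, 34.6% of kept cells had 0 Flt3 UMIs, 29.2% had 1, 16.3% had 2, 14.7% had 3 to 4 and 5.24% had 5 or more, up to 11 in a cell. In mouse 2 the shares were 37.9%, 29.3%, 17.2%, 12.5% and 3.05%, up to 9 in a cell. Flt3-rich cells thus made up 19.98% of the gate in mouse 1 (526 cells, 95% Wilson interval 18.5% to 21.5%) and 15.6% in mouse 2 (266 cells, 13.9% to 17.4%). Just outside the threshold stood 428 and 294 cells with 2 UMIs, and just inside it stood 251 and 149 cells with 3. In the LT-HSC gate of mouse 2, at a median depth above that of either ST-HSC library, 86.4% of cells had 0 Flt3 UMIs and 3 of 1217 cells had 3 or more (0.247%, interval 0.0839% to 0.722%). These intervals cover counting error alone. A count of 0 does not show that a cell lacked Flt3 RNA, since only part of a cell's RNA is captured. Because Flt3 counts chose the cells, its own level in the classes was not tested.

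**Figure D1:**
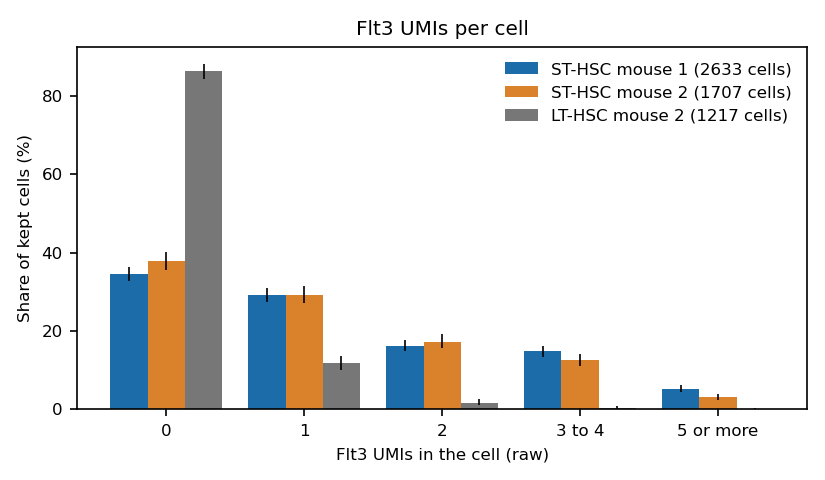
Share of kept cells (%) by the number of raw Flt3 UMIs in the cell, for the ST-HSC libraries of both mice and the LT-HSC library of mouse 2; bars are shares and lines are 95% Wilson intervals. The ST-HSC shares decline without a gap from 0 to 5 or more UMIs in both mice, while 86.4% of LT-HSC cells stand at 0.

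Flt3-rich cells were also somewhat deeper sequenced than Flt3-negative cells, with a median of 10266 against 9456 UMIs in mouse 1 and 7925.5 against 7201 in mouse 2. Each Flt3-rich cell was therefore paired with a Flt3-negative cell of the same library and nearly the same depth, which left 512 cells per class in mouse 1 (medians 10196.5 and 10190.5 UMIs) and 266 per class in mouse 2 (7925.5 and 7925). Counts were summed per class and mouse, and levels are given as counts per 1e6 UMIs (CPM) in the order mouse 1, mouse 2. Of 11198 genes tested with edgeR's quasi-likelihood test, with the mouse as a block and Flt3 itself left out, 284 (2.54%) were higher and 311 (2.78%) were lower in Flt3-rich cells at a Benjamini-Hochberg adjusted p under 0.05. Together they made up 5.31% of the genes tested. The median log2 fold change over all tested genes was 0.0020. With 2 mice the test leans on the spread shared across genes: DESeq2 on the same sums called 32 higher (0.286%) and 26 lower (0.232%), and edgeR without the mouse block called 34 and 36. Each SE below was computed back from the edgeR test statistic. It rests on that shared spread and does not measure how far the 2 mice differ for the gene. For 8 of the 595 calls the mice moved in opposite directions.

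**Figure D2:**
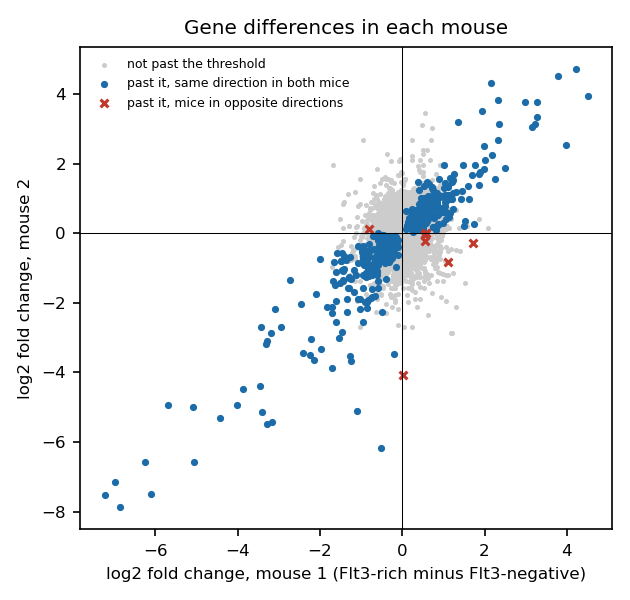
Log2 fold change of Flt3-rich against Flt3-negative cells for the 11198 tested genes, mouse 1 on the x axis and mouse 2 on the y axis; grey points did not pass the threshold, blue points passed it with the same direction in both mice, and red crosses mark the 8 calls with opposed mice. The called genes spread along the diagonal, with the neutrophil genes described in the text at the lower left.

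Lymphoid priming genes showed the clearest rise. Of a list of 20, 9 had enough counts to be tested, 8 of them rose, none fell, and the median log2 fold change was 1.01. Dntt and Ccr9 had enough counts through the Flt3-rich sums alone, so a fall could hardly have shown in them. Only Vpreb1, a surrogate light chain gene, did not pass among the 9 (log2 fold change 0.15). Dntt (chromosome 19, 41029275-41059525, plus strand) stood at 42.4 and 41.7 CPM in Flt3-rich cells and at 1.39 and 2.24 CPM in Flt3-negative cells. The classes were far apart in both mice, with a log2 fold change of 4.67 (SE 0.25, edgeR adjusted p 1.72e-19). Ighm, the immunoglobulin mu heavy chain locus (chromosome 12, 113418558-113422730, minus strand), stood at 84.4 and 86.1 CPM against 9.01 and 9.87 CPM. Its log2 fold change was 3.19 (SE 0.14, edgeR adjusted p 3.97e-23). Counts over the locus do not show whether these transcripts came from a rearranged allele. Tespa1, a thymocyte signalling adaptor, stood at 63.2 and 62.8 CPM against 25.1 and 27.4 CPM (log2 fold change 1.29). Il12a, the p35 chain of interleukin 12, stood at 84.1 and 121 CPM against 48.5 and 56.1 CPM. Notch1, Lck and Lax1, a receptor, a kinase and an adaptor of T cell development, rose by log2 fold changes of 0.79, 1.01 and 0.56.

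Several RNAs of later lymphoid stages were counted rarely or not at all. Ccr9, a homing receptor of thymus-seeding progenitors, was counted 35 and 14 times in Flt3-rich cells and 1 and 0 times in Flt3-negative cells, a ratio of 48.6 in counts per UMI with a counting interval of 8.32 to 1958. Those Ccr9 counts came from 11 and 6 cells. The interval treats each UMI as a separate count, so with so few cells it does not bound the difference between the classes. Il7r, the interleukin 7 receptor chain of lymphoid progenitors, was counted 2 times in all the matched Flt3-rich cells and 0 times in the Flt3-negative ones. Rag1, whose product cuts receptor genes for recombination, and Igll1, another surrogate light chain gene, were counted 0 times in either class. Of 11 B cell genes 2 could be tested and neither passed, and of 13 T, NK and innate lymphoid genes 2 could be tested and neither passed. Cd79b, a B cell receptor chain, was at 39.0 and 48.9 CPM against 34.3 and 39.0 CPM (log2 fold change 0.23, edgeR adjusted p 0.345).

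Several of the steepest rises were in genes outside the lymphoid list. Wfdc17 and Wfdc18 encode small secreted proteins with a whey acidic protein domain and are neighbours on chromosome 11 (83703991-83706268 and 83709015-83711348, both plus strand). Wfdc17 was the most abundant of the leading genes, at 328 and 539 CPM in Flt3-rich cells and 63.6 and 60.6 CPM in Flt3-negative cells (log2 fold change 2.64, SE 0.08). The 2 Flt3-rich values for Wfdc17 differed by more than the usual spread, which its SE does not show. With a spread fitted robustly per gene Wfdc17 did not pass (edgeR adjusted p 0.183), although it passed under each of the other 14 tested settings. Wfdc18 stood at 59.8 and 103 CPM against 5.89 and 11.2 CPM (log2 fold change 3.28, SE 0.15). Ccl3, an inflammatory chemokine gene of the same stretch of chromosome 11 (83647844-83649355, minus strand), stood at 55.0 and 74.9 CPM against 23.4 and 26.5 CPM (log2 fold change 1.32). In each of these genes both Flt3-rich values of the matched cells lay above both Flt3-negative values. Ccl3 was also summed without matching, in cells thinned to equal depth, at 0, 3 to 4 and 5 or more Flt3 UMIs. It was then at 46.5, 53.0 and 59.9 CPM in mouse 1 and at 40.5, 62.9 and 115 CPM in mouse 2. In mouse 1 the Ccl3 gap was thus smaller than with matched cells. Ccl3 still passed under each of the 15 tested settings.

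Other leading genes have no single theme. Ddx4, an RNA helicase best known from germ cells, was at 67.1 and 61.9 CPM in Flt3-rich cells against 14.4 and 12.6 CPM. Slc16a11, a monocarboxylate transporter, was at 65.9 and 90.6 CPM against 16.3 and 15.7 CPM. Sdc1 (syndecan 1, a cell surface proteoglycan), BC035044, Rasa4 (a Ras GTPase-activating protein) and Il1r1 (the interleukin 1 receptor) rose by log2 fold changes of 1.89, 1.85, 1.34 and 1.34. Arpp21, counted 45 and 20 times in Flt3-rich cells and 2 and 1 times in Flt3-negative ones, and Lztfl1, at 119 and 108 CPM against 57.9 and 57.4 CPM, were named after their values were seen. Among 35 tested cytokine and growth factor receptors 6 rose and 3 fell, with a median of 0.16. Of these, Ccr9 could be tested through the Flt3-rich sums alone, and Ccr2, a faller, through the Flt3-negative sums alone. Beside Il1r1, Ccr9 and Notch1, the risers were the interleukin 10 receptor chains Il10ra (log2 fold change 1.21) and Il10rb (0.53) and the interferon receptor chain Ifnar2 (0.28).

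**Figure D3:**
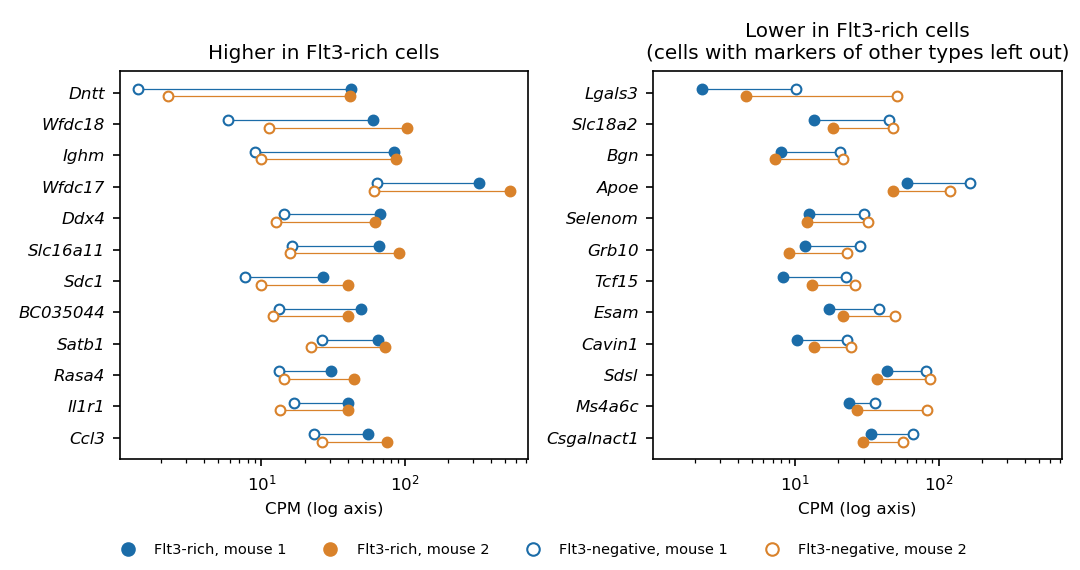
Levels (CPM, log axis) in the 4 sums of depth-matched cells, filled points for Flt3-rich and open points for Flt3-negative cells, mouse 1 in blue and mouse 2 in orange. On the left are the 12 genes with the largest rise among those at 20 CPM or more in the higher class, Dntt at the top from 1.39 and 2.24 to 42.4 and 41.7 CPM; on the right are the 12 with the largest fall by the same limit once cells with markers of other cell types were left out.

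Multipotent progenitor genes rose together but by smaller amounts. Of 15 tested, 12 rose, 1 fell and 2 did not pass, with a median log2 fold change of 0.40. Satb1, a chromatin organiser with a role in lymphoid lineage entry, stood at 64.5 and 72.7 CPM in Flt3-rich cells against 26.5 and 21.99 CPM (log2 fold change 1.41, SE 0.12, edgeR adjusted p 1.02e-12). Mn1, a transcriptional coactivator, stood at 31.8 and 31.4 CPM against 11.4 and 15.7 CPM. The tetraspanin Cd53 (1.07), the surface glycoproteins Emb (0.78) and Cd52 (0.63) and the sialomucin Cd34 (0.46) followed on the log2 scale. Cd34 was at 482 and 466 CPM against 340 and 354 CPM, and at 121 CPM in LT-HSC cells of mouse 2.

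Among 35 tested transcription factors of lymphoid and myeloid fate 12 rose and 2 fell, with a median of 0.09. Mef2c, which is needed for lymphoid differentiation, stood at 314 and 369 CPM against 242 and 272 CPM (log2 fold change 0.40). The lymphoid factors Ikzf1 (0.32), Bcl11a (0.31) and Foxp1 (0.24) rose by less. The myeloid factors Cebpa and Gfi1 also rose: Cebpa from 11.3 and 13.5 to 18.9 and 19.3 CPM, and Gfi1 from 22.9 and 23.3 to 36.8 and 39.5 CPM. The fallers were Tal1 and Gata2, factors of the stem cell, erythroid and megakaryocyte programmes, at log2 fold changes of -0.52 and -0.57. Hlf, a factor tied to stem cell identity, went up, from 646 and 584 CPM to 795 and 725 CPM (log2 fold change 0.30, SE 0.04, edgeR adjusted p 8.45e-07), although its level in LT-HSC cells of mouse 2 was 470 CPM.

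HSC-enriched genes were lower in part. Of 24 tested, 1 (Hlf) rose, 10 fell and 13 did not pass, with a median log2 fold change of -0.27. Mllt3, a regulator of stem cell maintenance, stood at 61.1 and 61.0 CPM in Flt3-rich cells against 97.3 and 101 CPM in Flt3-negative cells, and at 257 CPM in LT-HSC cells of mouse 2. Pdzk1ip1, a small membrane protein, stood at 60.3 and 83.0 CPM against 107 and 153 CPM (log2 fold change -0.85). The endothelial adhesion molecule Esam stood at 17.2 and 21.5 CPM against 38.3 and 49.8 CPM. The angiopoietin receptor Tek (-1.52) and Nupr1, a stress-response gene (-1.78), fell further on the log2 scale from low levels.

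Other stem cell genes did not separate the classes. Procr, the protein C receptor (EPCR) found on stem cells, was at 87.8 and 99.1 CPM against 80.9 and 96.5 CPM (log2 fold change 0.09, SE 0.08, edgeR adjusted p 0.626), and Mecom, a stem cell transcription factor, was at 76.9 and 96.0 CPM against 86.4 and 88.4 CPM (log2 fold change -0.08, SE 0.08, edgeR adjusted p 0.733). The genes of the sort did not pass either. Kit was at 202 and 243 CPM against 226 and 254 CPM, Ly6a (Sca1) at 230 and 296 against 234 and 280, and Cd48 at 15.2 and 16.6 against 12.3 and 25.1. Slamf1, which encodes CD150, had 9 and 12 UMIs in all the matched Flt3-rich and Flt3-negative cells and was too scarce to test, against 21.9 CPM in LT-HSC cells of mouse 2. The edgeR adjusted p was 0.255 for Kit, 0.942 for Ly6a and 0.959 for Cd48.

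Of 13 tested megakaryocyte and platelet genes 5 fell, 1 rose and 7 did not pass, with a median of -0.77. Among the fallers were Itga2b (integrin alpha IIb, -1.33), Rab27b (a granule-release GTPase, -1.21), Pf4 (platelet factor 4, -0.81) and the tetraspanin Cd9 (-0.77). Cd9 stood at 58.7 and 87.9 CPM in Flt3-rich cells against 111 and 125 CPM. The member that rose was Plek (pleckstrin), which other blood cells also use, at a log2 fold change of 0.47. Vwf, von Willebrand factor, was near its floor in all sums, with 19 UMIs in Flt3-rich and 17 in Flt3-negative cells, against 22.6 CPM in LT-HSC cells of mouse 2.

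With all matched cells, the 12 largest falls among genes at 20 CPM or more in the higher class and moving the same way in both mice included genes of neutrophils and red cells, which rested on a handful of Flt3-negative cells. S100a8, a calcium-binding protein of neutrophil cytoplasm, was at 4.94 and 5.38 CPM in Flt3-rich cells and at 632 and 1372 CPM in Flt3-negative cells. A single cell held 1868 of the 3647 S100a8 UMIs of mouse 1, and another held 3038 of the 3056 of mouse 2. Ngp, a granule protein, was counted 0 and 2 times against 427 and 573 times, of which 425 and 572 came from 1 cell in each mouse. Hba-a1, an alpha globin, reached 262 CPM in the Flt3-negative sum of mouse 2 alone, with 566 of 584 UMIs in 1 cell. Of the 12 largest falls, Wfdc21, Lcn2, Camp, S100a9, Ltf, Chil3, Ifitm6, Ctsg and the beta globin Hbb-bs followed the same course. Hba-a1 and Hbb-bs, high in mouse 2 alone, did not pass with a spread fitted robustly per gene (edgeR adjusted p 0.402 and 0.369). The 8 erythroid markers summed to 85.0 and 185 CPM in matched Flt3-rich cells and 130 and 1367 CPM in matched Flt3-negative cells.

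A cell was set aside when markers of 1 other cell type took 0.5% or more of its UMIs. Among matched cells this marked 1 and 1 Flt3-rich and 4 and 5 Flt3-negative cells, the neutrophil-lineage ones numbering 0 and 0 against 4 and 2. The 10 neutrophil-lineage markers summed to 443 and 507 CPM in matched Flt3-rich cells and 2042 and 3521 CPM in matched Flt3-negative cells, and in Flt3-rich cells of mouse 1 the granule genes Ngp and Ltf were at 0. With such cells left out and the matching redone, 344 genes (3.08%) were higher and 335 (3%) lower. All 284 higher genes were again called higher, and 274 of the 311 lower genes were again called lower. S100a8 then differed by -0.16 on the log2 scale (edgeR adjusted p 0.888), and of 9 mature neutrophil genes 2 had enough counts to test and neither passed.

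Among the 12 largest falls without those cells Apoe was the most abundant, and the values below are those with all matched cells. Apoe, the lipid carrier apolipoprotein E, stood at 60.3 and 47.5 CPM in Flt3-rich cells against 163 and 124 CPM (log2 fold change -1.42, SE 0.08, edgeR adjusted p 4.44e-19), and at 643 CPM in LT-HSC cells of mouse 2. Macrophages also express Apoe. Of the matched cells 0 reached the limit for macrophage markers, and the 6 macrophage markers, of which Apoe was not one, summed to 6.04 and 4.88 CPM in Flt3-rich and 6.10 and 7.12 CPM in Flt3-negative cells. The part of macrophage RNA in the Apoe difference was not tested. Slc18a2, a vesicular monoamine transporter, stood at 13.6 and 18.4 CPM against 44.9 and 48.5 CPM, and Bgn, the matrix proteoglycan biglycan, at 7.83 and 7.18 CPM against 20.3 and 22.4 CPM. Selenom (a selenoprotein of the endoplasmic reticulum, -1.31), the imprinted adaptor Grb10 (-1.30), the transcription factor Tcf15 (-1.31), Cavin1 (a caveola protein, -1.03), Sdsl (-0.998) and Csgalnact1 (-0.93) also fell on the log2 scale, and both Flt3-rich values of each lay below both Flt3-negative ones. In LT-HSC cells of mouse 2 each of these stood above its level in either class, and those other than Apoe ranged from 30.3 CPM for Cavin1 to 108 CPM for Sdsl. These genes were chosen after their values were seen.

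Myeloid genes moved in both directions. Of 15 tested, 2 rose and 7 fell with all matched cells, with a median of -0.14. Without cells carrying markers of other types 12 could be tested, 3 rose, 2 fell, and the median was 0.02. The 2 fallers there, Ly6c2 and Hp, had enough counts through the Flt3-negative sums alone, so a rise could hardly have shown in them. Of the fallers with all matched cells, Ctsg, Cebpe and Ms4a3 had too few counts to test once cells carrying markers of other types were left out. Mpo, myeloperoxidase, was at 6.13 and 7.62 CPM against 43.3 and 20.2 CPM, with 178 of its UMIs in 1 Flt3-negative cell of mouse 1, and its difference without those cells was -0.28 on the log2 scale (edgeR adjusted p 0.715). Ly6c2, a monocyte surface gene, was counted 0 times in Flt3-rich cells and 178 times in 10 Flt3-negative cells, at least 59.8-fold lower against a floor of 3 counts over the class. Ccr2, the monocyte chemokine receptor, was counted 0 and 69 times, at least 23.2-fold lower, from 2 and 5 Flt3-negative cells. These bounds treat each UMI as a separate count. With UMIs from so few cells they do not bound the difference between the classes. DESeq2 called neither Ly6c2 nor Ccr2. Both passed in edgeR without the cells set aside, and so did Lgals3, at 2.21 and 4.48 CPM against 12.3 and 55.7 CPM with 51 and 50 UMIs in the top cells. Monocyte genes were not among the marker lists, and the part of such cells in these 3 differences was not tested. Cebpa differed more without the cells set aside, by 0.96 against 0.67 on the log2 scale.

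**Figure D4:**
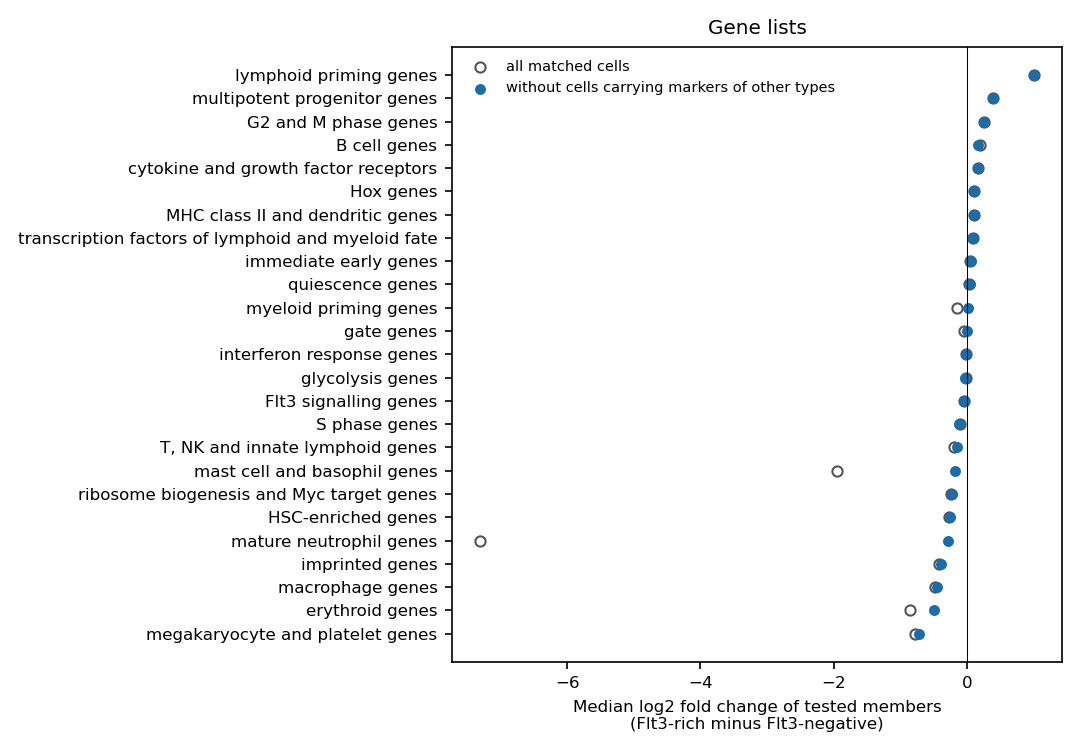
Median log2 fold change of the tested members of each gene list, Flt3-rich against Flt3-negative; open circles use all matched cells and filled circles leave out cells with 0.5% or more of their UMIs from markers of another type. Lymphoid priming genes (1.01) and multipotent progenitor genes (0.40) lie highest in both, while the mature neutrophil median moves from -7.31 to -0.28.

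The members differed widely among themselves. After each cell with 5000 or more UMIs was thinned to 5000, Dntt climbed with each class of Flt3 UMIs (0, 1, 2, 3 to 4, 5 or more), at 1.15, 3.21, 5.23, 18.7 and 111 CPM in mouse 1 and 2.44, 5.98, 9.06, 30.5 and 84.6 CPM in mouse 2. Ighm went from 11.5 to 142 CPM and from 11.9 to 162 CPM between the lowest and the highest class. Wfdc17 went from 76.5 to 574 CPM and from 98.1 to 850 CPM. Apoe declined from 202 to 52.6 CPM and from 122 to 46.2 CPM, and Slc18a2 from 46.3 to 8.76 CPM and from 46.4 to 7.69 CPM. The cells with 1 or 2 Flt3 UMIs, which entered neither class, lay between the compared classes for each of these 5 genes. Procr gave no such slope: it was at 102 and 107 CPM in the lowest class and at 77.4 and 131 CPM in the highest. As sums over all members, the lymphoid list went from 148 to 626 CPM and from 167 to 615 CPM, the multipotent progenitor list from 3958 to 5625 and from 4362 to 5892 CPM, and the HSC-enriched list from 5671 to 4572 and from 6237 to 5227 CPM. The highest class held 137 and 52 cells.

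**Figure D5:**
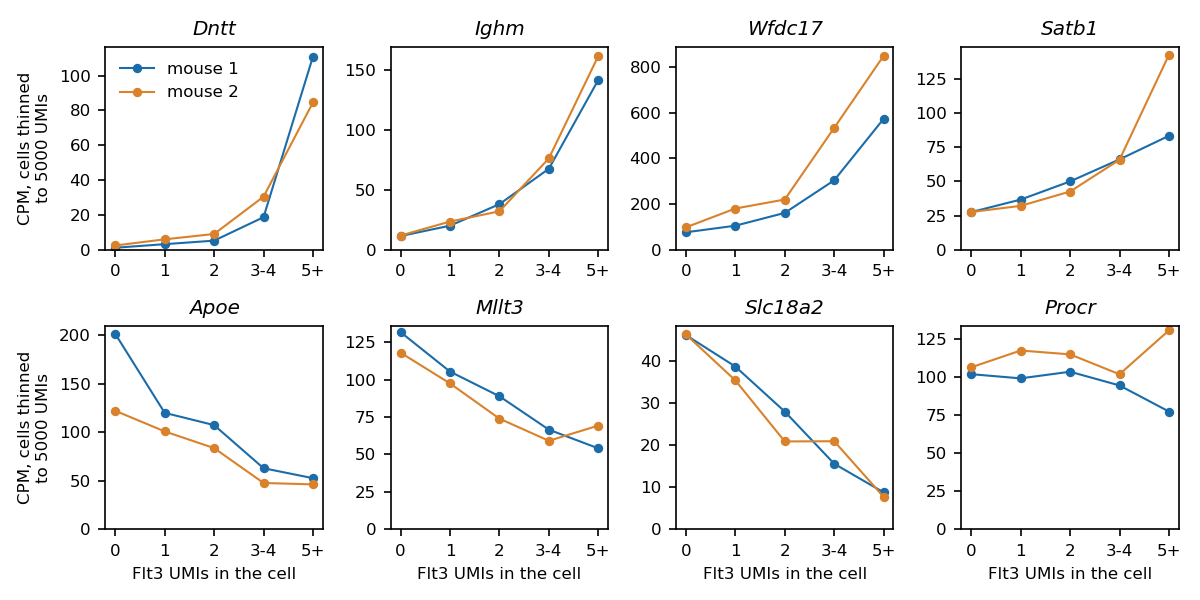
Level of 8 genes (CPM after thinning each cell to 5000 UMIs) by the number of raw Flt3 UMIs in the cell, mouse 1 in blue and mouse 2 in orange. Dntt, Ighm, Wfdc17 and Satb1 climb from the class with 0 Flt3 UMIs to that with 5 or more in both mice, Apoe and Slc18a2 decline, Mllt3 declines up to 3 to 4 UMIs, and Procr shows no common slope.

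In most Flt3-rich cells no Dntt UMI was counted. At 5000 UMIs per cell, Dntt was seen in 8.46% of Flt3-rich cells of mouse 1 (95% Wilson interval 6.34% to 11.2%) and 11.8% of mouse 2 (8.46% to 16.3%), against 0.591% and 0.763% of matched Flt3-negative cells. In LT-HSC cells of mouse 2 Dntt was seen in 0 of 1146 thinned cells, which allows a share of cells with a Dntt UMI of up to 0.262% (3 counts of the total). Before thinning, the shares were 13.7% and 13.5% against 1.56% and 0.752%. Ighm was more widespread, in 27.2% and 25.2% of Flt3-rich cells against 3.94% and 3.82%, and Wfdc17 more so, in 43.9% and 53.4% against 16.1% and 18.3%. Both shares stood above those in LT-HSC cells, 0.0873% for Ighm and 3.40% for Wfdc17. Apoe was seen in 20.7% and 18.3% of Flt3-rich cells against 43.5% and 34.7%, and in 85.3% of LT-HSC cells.

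Within the Flt3-rich class, cells with Dntt also held more of several other RNAs. Dntt was counted in 74 of 526 cells of mouse 1 and 36 of 266 of mouse 2, with up to 52 and 13 UMIs in a cell. Median depth was 10290.5 against 10241 UMIs in mouse 1 and 8625.5 against 7877.5 in mouse 2, where the Dntt-bearing cells were the deeper ones. The Dntt-bearing cells had 198 and 223 CPM of Ighm against 62.9 and 61.4 CPM in the other Flt3-rich cells. They had 606 and 1161 CPM of Wfdc17 against 267 and 424 CPM, and 133 and 168 CPM of Satb1 against 53.7 and 55.1 CPM. Il12a was at 131 and 262 CPM against 76.0 and 94.6 CPM. Genes outside the lymphoid list were higher too, Cebpa at 23.5 and 39.1 CPM against 17.5 and 15.6 CPM, Mpo at 12.3 and 12.03 CPM against 4.75 and 6.76 CPM, and the mitotic topoisomerase Top2a at 172 and 69.2 CPM against 92.1 and 46.8 CPM. The Mpo levels rested on as few as 11 and 4 UMIs against 25 and 13, and those of Cebpa on 21 and 13 against 92 and 30. Mllt3 was lower in the Dntt-bearing cells of mouse 1 (23.5 against 69.7 CPM) and close in mouse 2 (57.1 against 60.8 CPM). Of the Dntt-bearing cells 48.6% and 33.3% had 5 or more Flt3 UMIs, against 22.6% and 17.4% of the rest. These values describe a split made on the cells themselves and carry no test.

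UMIs of lymphoid, myeloid and stem cell genes could be counted in the same Flt3-rich cells. At least 1 UMI of Dntt, Ighm, Ccr9, Il7r or Rag1 was present in 46.8% and 38.7% of Flt3-rich cells and in 7.62% and 4.51% of matched Flt3-negative cells. A UMI of a myeloid gene (Mpo, Cebpa, Csf1r, Csf3r, Elane or Ctsg) accompanied it in 139 of 526 and 47 of 266 Flt3-rich cells, and one of a stem cell gene (Slamf1, Procr, Mecom, Vwf or Tek) in 188 and 75. The shares with both lymphoid and myeloid UMIs, 26.4% and 17.7%, were near the 24.98% and 18.2% to which the separate shares multiply. The myeloid genes alone were counted in 53.4% and 47.0% of Flt3-rich cells and in 43.6% and 31.6% of matched Flt3-negative cells. Stem cell RNA by this measure was present in 80.4% and 77.8% of Flt3-rich cells and in 83.8% and 77.8% of matched Flt3-negative cells.

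Genes of Flt3 signalling itself were called at a share near that of all genes. Of 38 tested members (adaptors, Ras and PI3 kinase components, Stat5, phosphatases and SOCS proteins) 1 fell, none rose and 37 did not pass, with a median log2 fold change of -0.05. The one was Socs2, a cytokine signalling inhibitor, at 7.83 and 8.07 CPM against 14.2 and 19.7 CPM (log2 fold change -0.999, SE 0.23, edgeR adjusted p 0.00303), and at 56.8 CPM in LT-HSC cells of mouse 2. The adaptor Grb2 was at 124 and 110 CPM against 140 and 135 CPM and narrowly missed the threshold (edgeR adjusted p 0.0513), which it passed once cells with markers of other types were left out (0.0250). The phosphatase Inpp5d (SHIP1) was at 73.2 and 61.0 CPM against 58.7 and 56.1 CPM (edgeR adjusted p 0.0837). The share of the list called was 2.63%, beside 5.31% of all genes, and 1 call is too few to tell these shares apart. Without cells carrying markers of other types it was 5.26%, beside 3.08% higher and 3% lower over all genes.

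Of 50 tested G2 and M phase genes 9 rose, none fell and 41 did not pass, with a median of 0.25. Of 42 S phase genes 6 fell, none rose and 36 did not pass, with a median of -0.11. Cenpf, a kinetochore protein, stood at 41.4 and 30.0 CPM in Flt3-rich cells against 19.4 and 15.7 CPM, and Kif23, a cytokinesis motor, at 51.1 and 42.2 CPM against 32.0 and 29.6 CPM. The ribonucleotide reductase subunit Rrm2 stood at 15.0 and 15.2 CPM against 25.1 and 35.9 CPM. The G2 and M phase median was 0.37 in mouse 1 and 0.05 in mouse 2. A single Flt3-rich cell of mouse 1 held 39 Cenpf UMIs. Shares of cells with 20 or more G2 and M phase UMIs of 5000 were close, 7.28% and 6.49% of Flt3-rich against 7.09% and 7.25% of Flt3-negative cells. The S phase median turned to 0.11 with all cells thinned to 5000 UMIs and no matching, and to 0.14 with all cells as counted. In thinned cells without matching, the S phase list summed to 1641 and 1379 CPM at 0 Flt3 UMIs and to 1825 and 1842 CPM at 5 or more. The G2 and M phase list summed to 1953 and 1853 CPM at 0, 2257 and 1732 CPM at 3 to 4, and 2531 and 3312 CPM at 5 or more. Of the Flt3-rich classes of mouse 2, only the 52 cells with 5 or more thus stood above the class with 0. The direction of the S phase genes thus differed between matched and unmatched cells. With the 25% of cells richest in cycle RNA left out, 144 genes (1.38%) were higher and 141 (1.35%) lower over all genes, and Dntt, Ighm, Wfdc17, Satb1 and Apoe were among them.

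Of 24 tested ribosome biogenesis and Myc target genes 10 fell, none rose and 14 did not pass, with a median of -0.23. The median was -0.09 with all cells thinned to 5000 UMIs and no matching. By that measure the list summed in mouse 1 to 4246 CPM in cells with 0 Flt3 UMIs, 4262 CPM in those with 3 to 4 and 4126 CPM in those with 5 or more, and in mouse 2 to 4275, 3917 and 3892 CPM, so a lower sum in both rich classes was seen in mouse 2 and not in mouse 1. The spermidine synthase Srm (-0.43), the lactate dehydrogenase Ldha (-0.38) and the nucleolar proteins Nop56 (-0.27) and Ncl (-0.17) fell on the log2 scale. Ldha stood at 204 and 219 CPM in Flt3-rich cells against 250 and 317 CPM. Ncl was at 623 and 540 CPM against 682 and 632 CPM, and its highest Flt3-rich value lay close to its lowest Flt3-negative one. Thinned and without matching, Ncl was at 616 CPM in cells of mouse 1 with 0 Flt3 UMIs and at 620 CPM in those with 3 to 4.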

How the data were processed

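Single cells were captured on the 10x Chromium system with 3′ v3 chemistry, per the labels' protocols. The authors deposited raw UMI counts per gene and barcode, made with Cell Ranger 3.1.0 against mm10 per the submitters' processing notes (the file headers name software version 3.0.2). The cell classes, gene lists and tests were chosen with earlier results of these data known. Flt3-rich and Flt3-negative cells of a library were paired 1 to 1 on log10 total UMIs without Flt3 (limit 0.05), without replacement. Counts were summed to 4 sums and tested with edgeR 4.0.16 (TMM, filterByExpr, quasi-likelihood), threshold 0.05. The mouse was the replicate block, because both classes of a mouse come from the same library; it leaves 1 residual degree of freedom. On simulated counts of 11237 genes for this comparison, edgeR found 80% of the smaller planted changes (log2 size 0.5) and 99% of the larger (size 1). It made 13 false calls, whereas DESeq2 1.42.0 found 18% and 62% with 0. The simulated counts were drawn at the trended spread that edgeR had fitted. They held no further spread of single genes and no single cells rich in a gene. The simulation therefore favours edgeR and does not give the false calls of either tool in these data. Gene positions are from GENCODE M21.

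Genes were named by rule: the 4 gate genes; the 12 largest changes per direction with an adjusted p under 0.05, 20 CPM or more in the higher class and mice in the same direction; up to 4 genes of smallest p per list with 5 CPM or more; and genes checked for co-detection. Others were named after their values were seen, among them list members given with a log2 fold change alone. Shares and levels by Flt3 class used cells thinned to 5000 UMIs. No doublet caller was run; an alternative leaves out the deepest 5% of cells.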

Additional observations from a re-analysis of the deposited data

How the results depend on the processing

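Counts of called genes depended on the fit. Without the replicate block 34 genes were higher and 36 lower, and with DESeq2 and the block 32 and 26. Matched cells thinned to 5000 UMIs gave 183 and 164, a threshold of 5 or more Flt3 UMIs 125 and 107, and leaving out the 25% of cells richest in cycle UMIs 144 and 141. All kept cells, neither matched nor thinned, gave 424 and 484. The other settings stayed within 1.5 times of 284 and 311. The cause of these shifts was not tested. A spread fitted robustly per gene and the 0.2% marker limit were chosen after seeing the data, and leaving out a mouse gives values with no test.

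Of 93 called genes among the 107 with recomputed values, 89 kept their direction in every setting run. The exceptions were Egr1 (0.56 in mouse 1 alone and -0.22 in mouse 2 alone), Fos (0.55 and -0.025), Ifi27l2a (1.72 and -0.29) and Cpa3, which turned to 0.39 without the 5% of cells with most UMIs. The other reversals were in genes that had not passed with the matched cells. Ly6a turned to -0.17 after thinning without matching, -0.16 with all kept cells (called lower there, edgeR adjusted p 0.0174), -0.012 matched and thinned, -0.0016 without cells carrying markers of other types, -0.019 at the 0.2% marker limit, -0.043 without the deepest 5% and -0.082 without the cycle-rich cells. Cd48 turned to 0.11 without cells carrying markers of other types, 0.055 at the 0.2% limit, 0.66 without the deepest 5% and 0.38 without the cycle-rich cells. Procr turned to -0.23 thinned, -0.12 with all kept cells, -0.061 at 2 or more Flt3 UMIs and -0.097 without the cycle-rich cells. Vwf turned to -0.84 thinned, -0.402 with all kept cells and -0.403 without the cycle-rich cells, Mecom to 0.088 at 5 or more Flt3 UMIs and Vpreb1 to -0.013 at the 0.2% limit.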

Other observations

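Counts of further gene groups can be set beside the 5.31% of all tested genes that were called. Of 25 interferon response genes 1 was called, Ifi27l2a, and its mice were opposed: 42.9 and 42.6 CPM in Flt3-rich cells against 12.6 and 52.1 CPM. Of 11 tested MHC class II and dendritic genes 1 rose, Tcf4, a factor of plasmacytoid dendritic cells and of other lymphoid cells, at 173 and 170 CPM against 151 and 132 CPM, with a list median of 0.11. Of 15 glycolysis genes Ldhb rose (log2 fold change 0.22) and Ldha fell, with a median of -0.01. Among 13 immediate early genes 5 rose and 1 fell, with a median of 0.04. Fos and Egr1 were among the risers with the mice opposed, Fos at 103 and 52.9 CPM against 70.3 and 53.9 CPM and Egr1 at 62.3 and 21.1 CPM against 42.1 and 24.7 CPM. Of 14 quiescence genes Btg2, an antiproliferative gene, rose from 29.8 and 18.4 to 53.8 and 36.3 CPM, Egr1 rose, and Rgs1, a regulator of G protein signalling, fell from 133 and 146 to 96.5 and 86.1 CPM, with a median of 0.03.

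Imprinted and Hox genes each held 1 riser and 1 faller. Of 7 tested imprinted genes Igf2r rose (log2 fold change 0.89) and Grb10 fell, with a median of -0.42, while Meg3, at 138 CPM in LT-HSC cells of mouse 2, was at 12.9 and 8.52 CPM in Flt3-rich cells against 17.3 and 18.9 CPM (edgeR adjusted p 0.0726). Thinned and without matching, Igf2r was at 12.1, 16.1 and 29.2 CPM at 0, 3 to 4 and 5 or more Flt3 UMIs in mouse 1. In mouse 2 Igf2r was at 16.4, 12.4 and 26.9 CPM. Of 10 tested Hox genes Hoxa9, a factor of early progenitors, rose from 131 and 121 to 161 and 167 CPM, and Hoxb2 fell from 9.01 and 15.7 to 3.06 and 9.87 CPM, with a median of 0.11. Of 7 tested erythroid genes 4 fell with all matched cells (median -0.85) and 2 without the cells carrying markers of other types, Hbb-bt and Gfi1b. The macrophage list had 2 tested members, Apoe and Cd68, of which Cd68 did not pass (log2 fold change 0.46). The mast cell and basophil list had 1, Cpa3, with 72 UMIs in 1 Flt3-negative cell of mouse 2.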
